A study of Homo sapiens with 14 samples.

Results

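The cytosolic and mitochondrial heat shock proteins described here are 10 genes, chosen by symbol from the 23106 genes counted in each library: HSF1, HSPA8, HSPH1, HSP90AA1, HSP90AB1, DNAJB1, HSPB1, BAG3, HSPD1 and HSPE1. Polyadenylated RNA was sequenced from PC3 cells, a prostate cancer line, and HCT116 cells, a colon cancer line. Each line was held for 16 h in hypoxia (0.5% O2) or kept in normoxia (21% O2), with 4 replicates of each condition in PC3 and 3 in HCT116, described by the study as biological replicates. No cell was given a heat shock, and no gene was altered. PC3 cells were grown in DMEM/Ham's F12 and HCT116 cells in McCoy's 5a medium, so line and medium cannot be told apart.

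Heat shock proteins are chaperones that hold, fold or hand on other proteins. HSF1 is the transcription factor that switches many of their genes on under proteotoxic stress, by binding repeats of the letters GAA in alternating orientation, called heat shock elements. Several of them, above all HSPA8 and HSP90AB1, are also abundant in unstressed cells, and cancer lines commonly carry high levels of them. HSPD1 and HSPE1 form the folding chamber of the mitochondrial matrix and its lid, and their genes lie head to head.

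The libraries held 71228454 to 123935458 counts in PC3 and 133067391 to 150630928 in HCT116, and every member had at least 7546 counts in every library, so counting error was small for all of them. All 10 members passed the filter on low counts in every comparison. All 5 genes used to check the treatment, CA9, NDRG1, PDK1, ANKRD37 and EGLN3, rose in hypoxia in both lines. The labels fitted the defining markers only in part. In HCT116 the intestinal factor CDX2 had 16.2 to 20.9 CPM (read counts divided by each library's size after edgeR's TMM correction) and was at 0 in every PC3 library, but CDX1 was at 0 in both lines and 5 of the 7 colon markers stayed under 1 CPM in every HCT116 group. In PC3, FOXA1 had 106 to 144 CPM and HOXB13 61.9 to 92.9 CPM, whereas KLK3 was at 0. Both lines expressed the epithelial genes EPCAM, KRT8 and KRT18. In bulk RNA, fewer cells expressing a gene and less RNA per cell cannot be told apart.

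Heat shock elements were searched in RefSeq windows (GRCh38.p14) running from 250 bases before to 50 bases after each start, available for 9 of the 10 members. The motif was GAA, any 2 bases, TTC, any 2 bases and GAA, read on both strands, so that GAA and its complement TTC alternate over 3 units. Of all 35116 windows 0.49% held it, and of all 27305 genes 0.608% had it in at least 1 window. It was found in 4 members: HSPA8, HSP90AA1, HSP90AB1 and HSPD1. The matches are shown because they mark which members carry the HSF1 binding letters close to a start, with the motif in capitals and 6 flanking bases (5 at one edge) in lower case, read 5′ to 3′ on the strand of the gene:
HSPA8, 230 to 218 bases before the start: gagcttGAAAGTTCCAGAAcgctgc
HSPA8, 55 to 43 bases before the start: ggccccTTCTGGAAGGTTCtaagat
HSP90AA1, 88 to 76 bases before its more downstream start: gggttcTTCCGGAAGGTTCgggagg
HSP90AB1, 165 to 153 bases before the third start: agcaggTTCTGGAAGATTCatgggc
HSP90AB1, 112 to 100 bases before the third start: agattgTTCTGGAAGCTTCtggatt
HSPD1, 245 to 228 bases before its start farther from HSPE1: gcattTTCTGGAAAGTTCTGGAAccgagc
In HSPD1 the letters ran on to 4 alternating units, giving 2 overlapping matches. Each sequence occurred once, exactly, on its chromosome in GRCh37: the HSPA8 matches at chr11:122933056-122933080 and chr11:122932881-122932905, HSP90AA1 at chr14:102553451-102553475, HSP90AB1 at chr6:44215509-44215533 and chr6:44215562-44215586, and HSPD1 at chr2:198364786-198364814. None overlapped an exon of the canonical transcript, but all lay inside some annotated transcript of their gene. Both HSP90AB1 matches lay in an intron of 3 of 4 transcripts, and the HSP90AA1 match in an intron of 2 of 10. The HSPA8 and HSPD1 matches each overlapped an exon of 2 of 24 transcripts. HSPD1 has starts 105 and 539 bases from the start of HSPE1, and its element lies on the HSPE1 side of the farther one. The core letters of the element bound by HIF, ACGTG or GCGTG on either strand, stood in a window of 6 members, where 52.4% of all genes had them. A match of letters describes the sequence and does not show binding, and no match says only that these letters are not in the window.

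The members are spread over 9 chromosomes of GRCh37, the build of the counts, with positions here from the GENCODE annotation. The matrix pair HSPD1 (chr2:198351308-198381461, minus strand) and HSPE1 (chr2:198364864-198368173, plus strand) share chromosome 2. The others are HSF1 (chr8:145515273-145538383, plus), HSPA8 (chr11:122928197-122933938, minus), HSPH1 (chr13:31709110-31736525, minus), HSP90AA1 (chr14:102547079-102606036, minus), HSP90AB1 (chr6:44213903-44221625, plus), DNAJB1 (chr19:14625581-14671203, minus), HSPB1 (chr7:75931990-75933612, plus) and BAG3 (chr10:121410892-121437331, plus). Counts of several members are uncertain. HSPA8 has 17 annotated pseudogenes, HSPD1 18 and HSPE1 26, among which reads can be split or lost, and HSP90AA1, HSP90AB1, DNAJB1 and HSPB1 have 5, 6, 2 and 2. The annotated spans of HSF1, HSPA8, HSP90AA1, DNAJB1, HSPD1 and HSPE1 overlap a gene on the other strand, and the strand setting of the counting is not stated. On their own strand HSPE1 overlaps the read-through gene HSPE1-MOB4, and HSPA8 overlaps small nucleolar RNA genes. Reads in these overlaps cannot be assigned with certainty.

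Within each group the members spanned a wide range of levels. Per kilobase of the canonical transcript, HSPA8, the constitutive cytosolic HSP70, had the highest level in PC3 in normoxia, at 1650 ± 82.4 CPM per kb (SD, n = 4). The HSP90 pair followed, HSP90AB1 at 1113 ± 51.6 and HSP90AA1 at 1054 ± 128 CPM per kb, and their ranges overlapped. HSPD1 (533 ± 75.4), HSPE1 (336 ± 48.9), HSPB1 (140.4 ± 17.6) and DNAJB1 (104 ± 2.06 CPM per kb) came next, each apart from its neighbours in that order. The lowest levels were those of HSF1 (54 ± 2.02), HSPH1 (49.5 ± 5.01) and BAG3 (38 ± 10.3 CPM per kb), each with a range that overlapped that of the next. In HCT116 in normoxia HSP90AB1 stood first, at 2785 ± 132 CPM per kb (n = 3), and HSPA8 second, at 2414 ± 221, with ranges that overlapped. There HSF1 (54.4 ± 3.65) and BAG3 (48.9 ± 1.63 CPM per kb) were lowest, below HSPH1 at 94.3 ± 4.76. In hypoxia the order in each line was the same as in normoxia. With the longest annotated transcript in place of the canonical one, the first 3 places of each group were unchanged and HSF1 was last in all 4 groups.

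**Figure D1:**
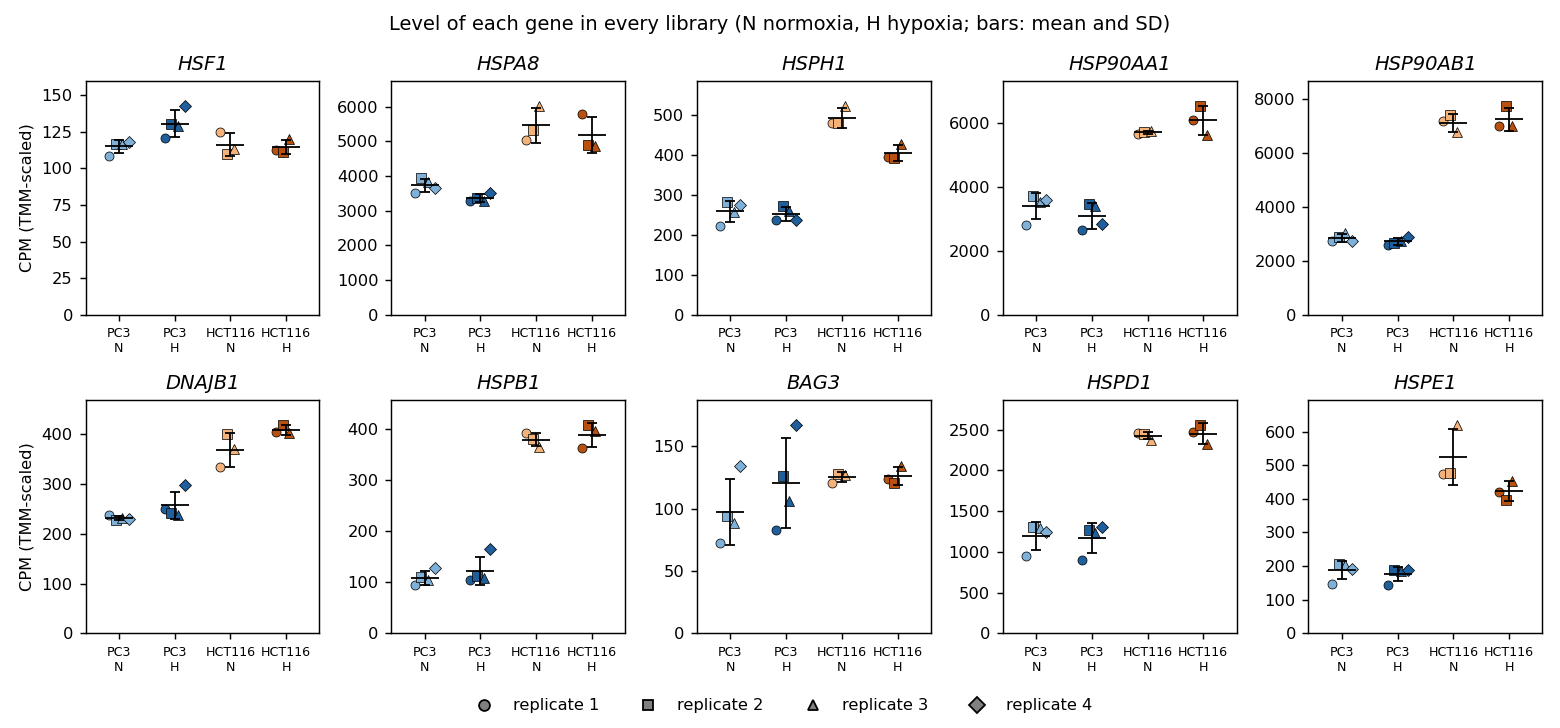
TMM-scaled CPM of each member in every library, by line and condition (N, normoxia; H, hypoxia), with symbols for the replicate number, a bar for the mean and whiskers for the SD. Each vertical axis starts at 0, and 8 members are higher in all HCT116 than in all PC3 libraries, while HSF1 and BAG3 are not. The share of all genes without overlap between the lines was not counted.

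The comparison of the lines asks how far these levels belong to the line. In normoxia 8 of the 10 members were higher in HCT116 than in PC3 and none was lower, where 40.5% of all 15206 genes tested were called higher and 42.9% lower. In hypoxia the count was again 8 higher and 0 lower, against 38.1% and 40.6% of 14890 genes. The median log2 difference over the members was 0.86 in normoxia and 0.83 in hypoxia, beside −0.03 over all genes tested in both. Tests across genes here were made with edgeR (quasi-likelihood), p-values were adjusted over all genes tested by Benjamini and Hochberg's method, a gene was called at an adjusted p under 0.05, and SE stands for the standard error of the log2 fold change.

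The widest line difference was that of HSPB1, the small heat shock protein HSP27, which holds unfolded proteins and steadies actin. Its level in PC3 was 95, 110.2, 104 and 127 CPM in normoxia (replicates 1 to 4) and 104, 113, 108 and 164 in hypoxia. In HCT116 it was 392, 382 and 366 CPM in normoxia and 363, 409 and 396 in hypoxia. Every HCT116 library lay far above every PC3 library. The log2 difference was 1.82 (SE 0.09, adjusted p = 4.6e-08) in normoxia and 1.67 (SE 0.15, adjusted p = 3.23e-06) in hypoxia.

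The mitochondrial pair differed by unequal amounts. HSPE1, the lid, had 148, 207, 204 and 191 CPM in PC3 in normoxia and 474, 476 and 621 CPM in HCT116. HSPD1, the chamber, had 945, 1308, 1288 and 1243 CPM in PC3 and 2460, 2442 and 2375 CPM in HCT116. The lines did not overlap for either gene, and PC3 replicate 1 was the lowest for both. The log2 difference was 1.51 for HSPE1 (SE 0.13, adjusted p = 2.92e-06) and 1.04 for HSPD1 (SE 0.10, adjusted p = 7.97e-06) in normoxia, and 1.26 and 1.06 in hypoxia.

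Both forms of HSP90, which matures kinases and steroid receptors, were higher in HCT116. HSP90AB1, the constitutive form, had 2743, 2881, 3013 and 2734 CPM in PC3 in normoxia and 7181, 7415 and 6753 CPM in HCT116, a log2 difference of 1.34 (SE 0.07, adjusted p = 8.88e-08). HSP90AA1, the stress-inducible form, had 2795, 3716, 3518 and 3575 CPM in PC3 and 5651, 5717 and 5727 CPM in HCT116, a log2 difference of 0.77 (SE 0.09, adjusted p = 3.89e-05). In counts not divided by length, HSP90AA1 was the higher of the 2 in every PC3 normoxia library and HSP90AB1 in every HCT116 library, whereas per kilobase the mean of HSP90AB1 was the higher in all 4 groups.

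Of the HSP70 system, HSPH1 (HSP110, which exchanges the nucleotide of HSP70) was 0.95 higher on the log2 scale in normoxia (SE 0.08, adjusted p = 2.5e-06). DNAJB1 (HSP40, which brings clients to HSP70) was 0.69 higher (SE 0.07, adjusted p = 1.02e-05) and HSPA8 0.57 higher (SE 0.08, adjusted p = 0.000121). In hypoxia the differences were 0.69, 0.67 and 0.62, and all 3 were called. These genes did not overlap between the lines in either condition.

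HSF1 and BAG3 were not called between the lines. HSF1 in normoxia had 109, 117, 117 and 118 CPM in PC3 and 125, 110.1 and 113 CPM in HCT116, and the log2 difference was 0.03 (95% interval −0.10 to 0.17). In hypoxia it was −0.19 (SE 0.08, adjusted p = 0.0614), with all 3 HCT116 libraries below all 4 PC3 libraries. BAG3, the co-chaperone that sends clients of HSP70 to autophagy, had a log2 difference of 0.38 in normoxia (SE 0.17, adjusted p = 0.053) and 0.06 in hypoxia (SE 0.19, adjusted p = 0.777). Both calls turned on the setting. BAG3 was called higher in HCT116 in normoxia with upper-quartile scaling (adjusted p = 0.038), DESeq2 (0.0381) and no filter on low counts (0.047), and without PC3 normoxia replicate 4 at 0.57 (adjusted p = 0.000473). HSF1 in hypoxia was called lower with total-count scaling, DESeq2, a minimum of 10 counts in every library and a fit over all 14 libraries, and without PC3 hypoxia replicate 1 at −0.23 (adjusted p = 0.0242).

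**Figure D2:**
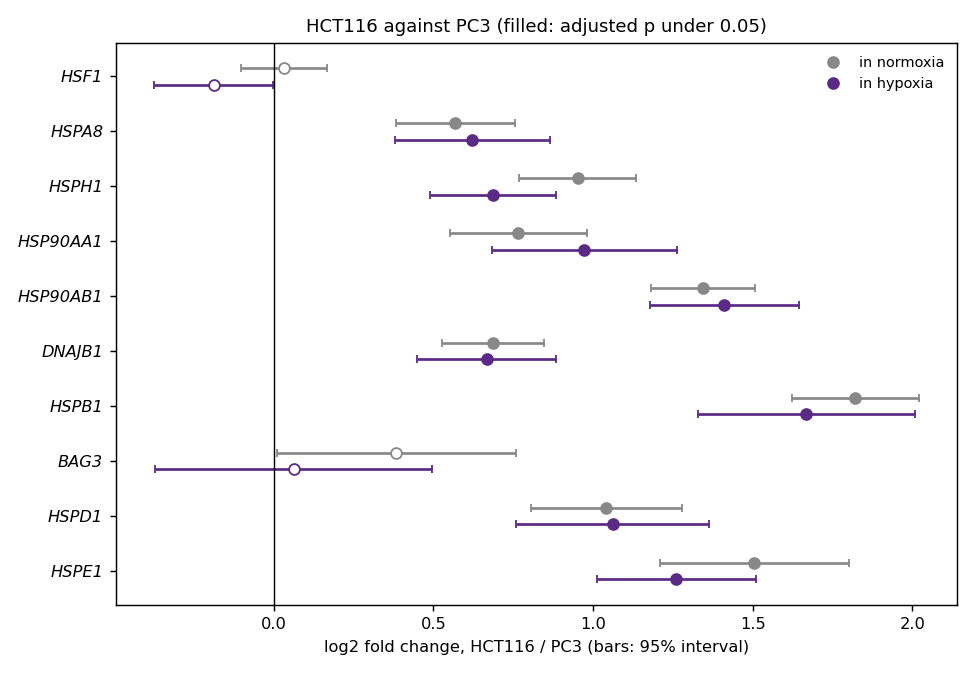
Log2 fold change of HCT116 against PC3 for each member in normoxia (grey) and in hypoxia (purple), with bars for the 95% interval and filled points for an adjusted p under 0.05. The 8 filled genes run from 0.57 (HSPA8) to 1.82 (HSPB1) in normoxia, and HSF1 and BAG3 are open in both conditions.

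Hypoxia moved the members little. In PC3, 0 of the 10 were called without a replicate block, where 11.3% of 14309 genes tested were, 6.03% higher and 5.29% lower. At an unadjusted p under 0.05, 1 member passed, HSF1, and DESeq2 called that same gene. The share of all genes at the unadjusted threshold was not counted. With the replicate as a block, 2 members were called in PC3, both higher, where 28.5% of all genes were called. In HCT116, 1 of the 10 was called, HSPH1, which fell, where 25.9% of 14120 genes were called, 14.6% higher and 11.3% lower. Of all genes called, 53.3% were higher in PC3 and 56.3% in HCT116, but 24.5% and 29.0% with total-count scaling, and 39.4% in PC3 with upper-quartile scaling. The median log2 fold change of the members was −0.03 in PC3 and 0.03 in HCT116, beside 0.00 over all genes in both.

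HSPH1 in HCT116 had 480.3, 479.7 and 523 CPM in normoxia and 395, 394 and 429 CPM in hypoxia. All 3 hypoxic libraries lay below all 3 normoxic ones. It fell by 0.27 on the log2 scale (SE 0.07, adjusted p = 0.0144), a change of −16.9%. The call was lost without HCT116 hypoxia replicate 2 (adjusted p = 0.0518) and in a fit over all 14 libraries (adjusted p = 0.0607). In PC3 HSPH1 had 223, 282, 257 and 276 CPM in normoxia and 238, 272, 261 and 237 in hypoxia, with overlapping groups and a log2 fold change of −0.04 (95% interval −0.22 to 0.15).

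HSPE1 in HCT116 lay close to the threshold. It had 474, 476 and 621 CPM in normoxia and 420.2, 396 and 453 CPM in hypoxia. The groups did not overlap, and normoxia replicate 3 was the highest by a wide margin. The log2 fold change was −0.29 (SE 0.10, adjusted p = 0.0594). It passed the threshold with DESeq2 (adjusted p = 0.0139) and in 7 further alternatives, and without normoxia replicate 3 its size was −0.16 (adjusted p = 0.116). HSPD1, its partner, had 2476, 2561 and 2317 CPM in hypoxia, overlapping its normoxic range, with a log2 fold change of 0.03 (95% interval −0.11 to 0.17).

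HSF1 in PC3 had 121, 131, 129 and 143 CPM in hypoxia, all above the 109 to 118 CPM of normoxia. The log2 fold change was 0.19 (SE 0.06, adjusted p = 0.0931). BAG3 in PC3 had 72.5, 94.3, 88.3 and 134 CPM in normoxia and 82.6, 126, 106 and 167 CPM in hypoxia. The groups overlapped, since replicate 4 was the highest and replicate 1 the lowest in both conditions, but each replicate was higher in hypoxia than in normoxia. The log2 fold change was 0.31 (SE 0.22, adjusted p = 0.404), and it was 0.12 without hypoxia replicate 4, 0.20 without normoxia replicate 1 and 0.50 without normoxia replicate 4, with no call in any of them. PC3 libraries of the same replicate number deviated together, most clearly for replicate 1. With the replicate as a block 2 members were called in PC3, both higher: BAG3 at 0.30 (SE 0.05, adjusted p = 0.00699) and HSF1 at 0.19 (SE 0.05, adjusted p = 0.0277). The same blocked fit called 28.5% of all genes, 14.9% higher. In HCT116 HSF1 and BAG3 had log2 fold changes of 0.00 and 0.03, with 95% intervals of −0.14 to 0.15 and −0.11 to 0.17.

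The abundant cytosolic chaperones were not called in either line. HSPA8 in PC3 had 3521, 3941, 3832 and 3653 CPM in normoxia and 3282, 3356, 3285 and 3523 CPM when hypoxic. The groups touched only at their ends, and the log2 fold change was −0.15 (95% interval −0.30 to 0.01). With total-count scaling, which moved the median of all genes to −0.10, HSPA8 was called lower in PC3 (adjusted p = 0.0274). In HCT116 HSPA8 had a log2 fold change of −0.06 (95% interval −0.26 to 0.14). HSP90AA1 had −0.13 in PC3 (95% interval −0.39 to 0.12) and 0.11 in HCT116 (−0.04 to 0.26), and HSP90AB1 −0.06 and 0.04. DNAJB1 had 334, 401 and 370.5 CPM in normoxia and 404, 419.6 and 402 in hypoxia in HCT116, where the groups did not overlap, with a log2 fold change of 0.17 (SE 0.08, adjusted p = 0.132). In PC3 its log2 fold change was 0.15 (SE 0.08, adjusted p = 0.265), and HSPB1 had 0.17 (SE 0.15, adjusted p = 0.491).

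**Figure D3:**
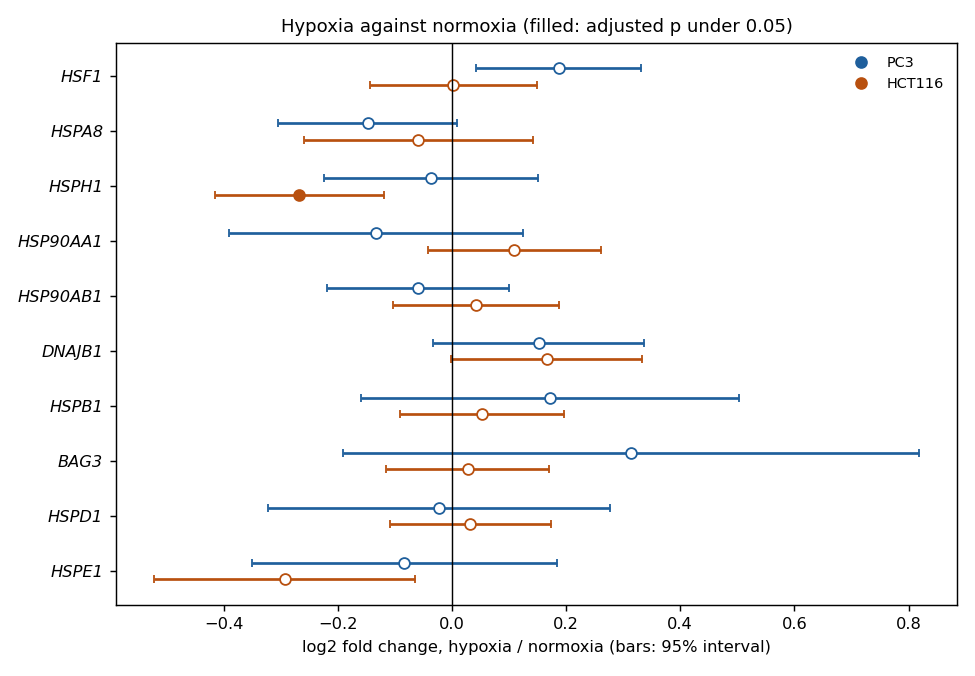
Log2 fold change of hypoxia against normoxia for each member in PC3 (blue) and HCT116 (orange), with bars for the 95% interval and a filled point for an adjusted p under 0.05. The fits have no replicate block. Only HSPH1 in HCT116 is filled, at −0.27, and the widest interval is that of BAG3 in PC3, from −0.19 to 0.82.

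Whether the responses differed between the lines was tested as the interaction of line and oxygen over all 14 libraries. It was called for 0 of the 10 members and for 2.32% of the 15493 genes tested, and 0 members passed at an unadjusted p under 0.05. DESeq2 called 0 members too, but 2 passed at an unadjusted p under 0.05 there, and 2 with median-of-ratios scaling. Of all genes called for the interaction 56.5% had a positive difference, and 70.7% with upper-quartile scaling. The largest differences, HCT116 minus PC3, were those of BAG3 at −0.30 (95% interval −0.91 to 0.32), HSPH1 at −0.24 (−0.50 to 0.02) and HSP90AA1 at 0.23 (−0.12 to 0.58). With the replicate as a block in both lines, 4 members passed at an unadjusted p under 0.05. The share of all genes at that threshold was not counted in any of these fits. After adjustment 0 members were called in the blocked fit, where 8.43% of all genes were. BAG3 came closest, at −0.29 (SE 0.09, adjusted p = 0.06), followed by HSPH1 at −0.24 (SE 0.09, adjusted p = 0.12). A fall of HSPH1 that belongs to HCT116 was thus not shown.

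The members took a larger part of the counts in HCT116. Summed, they held 1.16% to 1.36% of the counts of a library in PC3 in normoxia and 1.04% to 1.18% in hypoxia, and 2.25% to 2.32% and 2.07% to 2.22% in HCT116. The share was lower in hypoxia in every replicate number of both lines, with a mean difference of −0.163 percentage points in PC3 (exact two-sided permutation test, p = 0.0857, n = 4 and 4) and −0.106 in HCT116 (exact permutation p = 0.1, the smallest that 3 against 3 can give). Taken of the TMM-scaled library size, the PC3 difference was −0.077 (exact permutation p = 0.229) and the HCT116 difference 0.0103 (exact permutation p = 0.8), so the size of the first and the direction of the second depend on the scaling.

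Ratios of members within a library do not depend on the scaling. Of 8 comparisons of 4 ratios, none passed after adjustment. The log2 ratio of DNAJB1 to HSPA8, the J-domain partner to its HSP70, was −4.01 ± 0.10 in PC3 in normoxia and −3.71 ± 0.11 in hypoxia (SD, n = 4). The groups did not overlap, and the rise of 0.29 had an exact permutation p = 0.0286, the smallest that 4 against 4 can give, and an adjusted p = 0.229. In HCT116 the rise was 0.23, in 3 of 3 replicate numbers (exact permutation p = 0.2). The log2 ratio of HSPD1 to HSPE1 was 2.68 ± 0.02 in PC3 and 2.22 ± 0.25 in HCT116 in normoxia, where replicate 3 stood lowest at 1.94, and it was 0.31 higher in hypoxia in HCT116 (exact permutation p = 0.3). The log2 ratio of HSP90AA1 to HSP90AB1 was 0.25 ± 0.17 in PC3 and −0.32 ± 0.07 in HCT116 in normoxia.

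**Figure D4:**
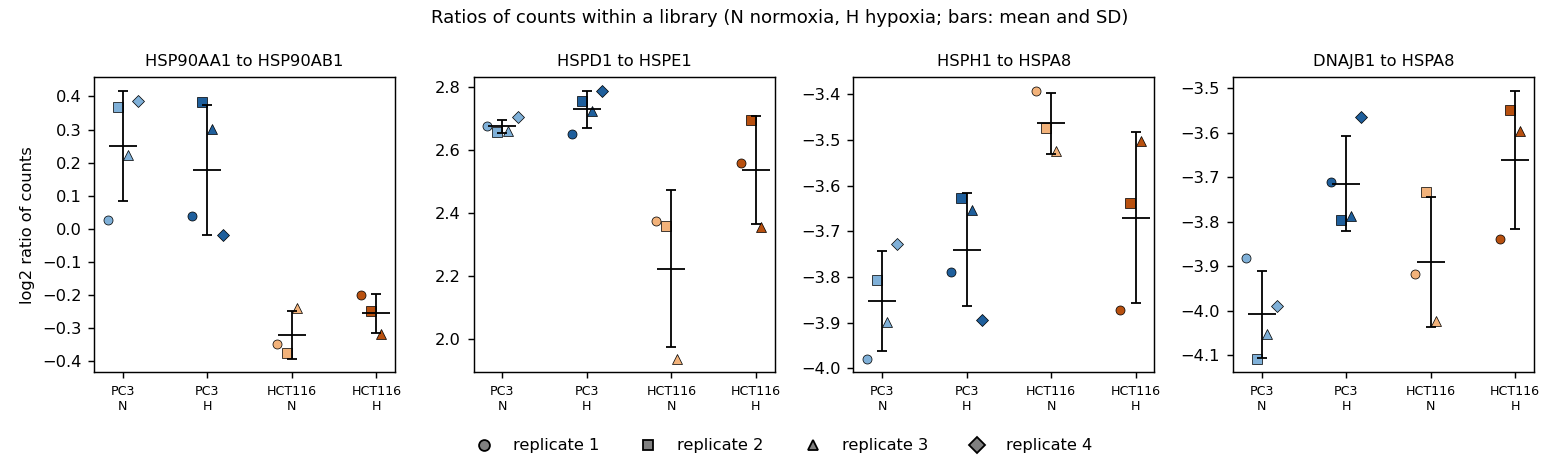
Log2 ratio of the counts of 2 members within each library, by line and condition (N, normoxia; H, hypoxia), with symbols for the replicate number, a bar for the mean and whiskers for the SD. The axes do not start at 0, and the ratio of DNAJB1 to HSPA8 in PC3 is the one whose 4 hypoxic libraries all lie above its 4 normoxic ones.

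In PC3, replicate 1 was the lowest of its group in both conditions for 7 members: HSF1, HSPA8, HSP90AA1, HSPB1, BAG3, HSPD1 and HSPE1. Replicate 4 was the highest in both for 3, HSF1, HSPB1 and BAG3, and replicate 2 for 2, HSPH1 and HSP90AA1. The share of all genes with such places was not counted. The 2 libraries of replicate 1 deviated together over all 14309 genes tested (r = 0.675), so these counts are not taken as a trait of the members. Over all 14 libraries, with the mean of each line removed, BAG3 and HSPB1 were the members most alike, with Pearson's r = 0.88, followed by HSPH1 and HSPE1 at 0.84. Many other genes lay closer. Of 15492 genes, HSPB1 was at rank 80 for BAG3, and BAG3 at rank 62 for HSPB1. HSPE1 was at rank 91 for HSPH1, and HSPH1 at rank 129 for HSPE1. These are descriptions over libraries that share conditions and replicate numbers. Among all 15492 other genes the closest to a member were HRSP12 to HSPE1 (r = 0.97), PRKX to HSP90AA1 (0.97), HAUS7 to HSPD1 (0.97), ANXA6 to HSPB1 (0.96), NTSR1 to BAG3 (0.96), RARA to HSF1 (0.95), FAM69A to DNAJB1 (0.94), RTTN to HSPH1 (0.94), MRPL15 to HSPA8 (0.92) and CBR3 to HSP90AB1 (0.87).

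The rest of the chaperone network was described with 8 lists of 91 genes, of which 83 were tested in PC3 and 81 in HCT116. In PC3 3 rose and 3 fell, where 6.03% of all genes rose and 5.29% fell, and the median log2 fold change was 0.02. DNAJB6, a J-domain protein that keeps polyglutamine proteins from aggregating, rose by 0.41 (SE 0.07, adjusted p = 0.00811), as did DNAJC5 by 0.34 and LONP1, the protease of the mitochondrial matrix, by 0.35. AHSA2 fell by 0.84 and FKBP5, an HSP90 co-chaperone of steroid receptors, by 0.34. The sixth, HSF4, fell by 1.05 (adjusted p = 0.0319) at a mean of 1.23 CPM in normoxia and 0.584 in hypoxia, and is named after its value was seen. DNAJB6 was called with each of the 8 libraries left out. The call was lost for DNAJC5 without normoxia replicate 2 or 3 (adjusted p = 0.0666 and 0.063), for AHSA2 also without hypoxia replicate 2 or normoxia replicate 4 (0.0655 to 0.0727 over the 4), and for LONP1 without replicate 2 of either condition or replicate 3 of either (0.0509 to 0.0811) and with total-count scaling (0.0672). FKBP5 lost it without any library other than normoxia replicate 1 and hypoxia replicate 3 (0.0664 to 0.133). With the replicate block 6 rose and 7 fell, where 14.9% of all genes rose and 13.6% fell.

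In HCT116 6 of the 81 rose and 22 fell, where 14.6% of all genes rose and 11.3% fell, and the median was −0.04. Of the HSP70 and HSP110 relatives 1 rose, HSPA2 at 0.48, and 3 fell, among them HSPA14 by 0.47. Of the J-domain proteins 3 rose, led by DNAJB2 at 0.78 (SE 0.09, adjusted p = 0.000108), and 5 fell, led by DNAJB14 by 0.33. Of the 19 co-chaperones of HSP90 and HSP70 5 fell, among them AHSA2 by 0.87 and CDC37L1 by 0.39. Of the 8 subunits of TRiC, the cytosolic chaperonin that folds actin and tubulin, 3 fell, including CCT8 by 0.26 and CCT6A by 0.21. Of the 17 mitochondrial chaperones and proteases 2 rose, LONP1 at 0.50 (SE 0.07, adjusted p = 0.000436) and GRPEL1 at 0.25, and 3 fell. HSPB8 fell by 0.44, BAG2 by 0.29 and HSF2, a second heat shock factor, by 0.28. Of the 13 genes named here for HCT116, DNAJB2, AHSA2, CDC37L1, CCT8 and LONP1 were called with each library left out, and the other 8 lost the call without at least 1 of the 6 libraries (HSPA2 and CCT6A without 4, HSPA14, DNAJB14 and BAG2 without 3). In the fit over all 14 libraries 10 fell in place of 22. The response differed between the lines for 0 of the 84 genes tested with edgeR, and DESeq2 called 4. With edgeR 14 passed at an unadjusted p under 0.05, and the share of all genes at that threshold was not counted. Of all 19402 genes fitted by DESeq2, it called 504 positive and 467 negative. With the replicate as a block in both lines, the difference was called for 7, 2 positive and 5 negative. The same blocked fit called 8.43% of all 15493 genes, 4.58% positive and 3.85% negative. Among the 7 were FKBP5 at 0.41 (adjusted p = 0.0133), DNAJB2 at 0.43 (adjusted p = 0.0163) and DNAJB6 at −0.43 (adjusted p = 0.0207). These calls rest in part on a block by the HCT116 numbers, which are not taken to pair samples.

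The counts of the stress-inducible HSP70 genes were low in every library. HSPA1A had 1.75 to 3.63 CPM in PC3 and 0.0629 to 0.747 CPM in HCT116, and HSPA1B 3.8 to 5.57 CPM in PC3 and 13.6 to 20.6 CPM in HCT116. Neither was called in hypoxia in either line, with adjusted p from 0.308 to 0.789. The coding sequences of the 2 are nearly identical, so reads can be split between them or lost, and both counts are uncertain. BAG6, a widely expressed gene of the same region of the major histocompatibility complex, also had few counts, with group means of 0.134 to 1.61 CPM. Whether reads of this region were lost was not tested. Between the lines the same lists gave 55 higher and 21 lower of 84 genes tested in normoxia, where 40.5% of all genes were higher and 42.9% lower, and 7 of the 8 TRiC subunits were higher in HCT116.

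**Figure D5:**
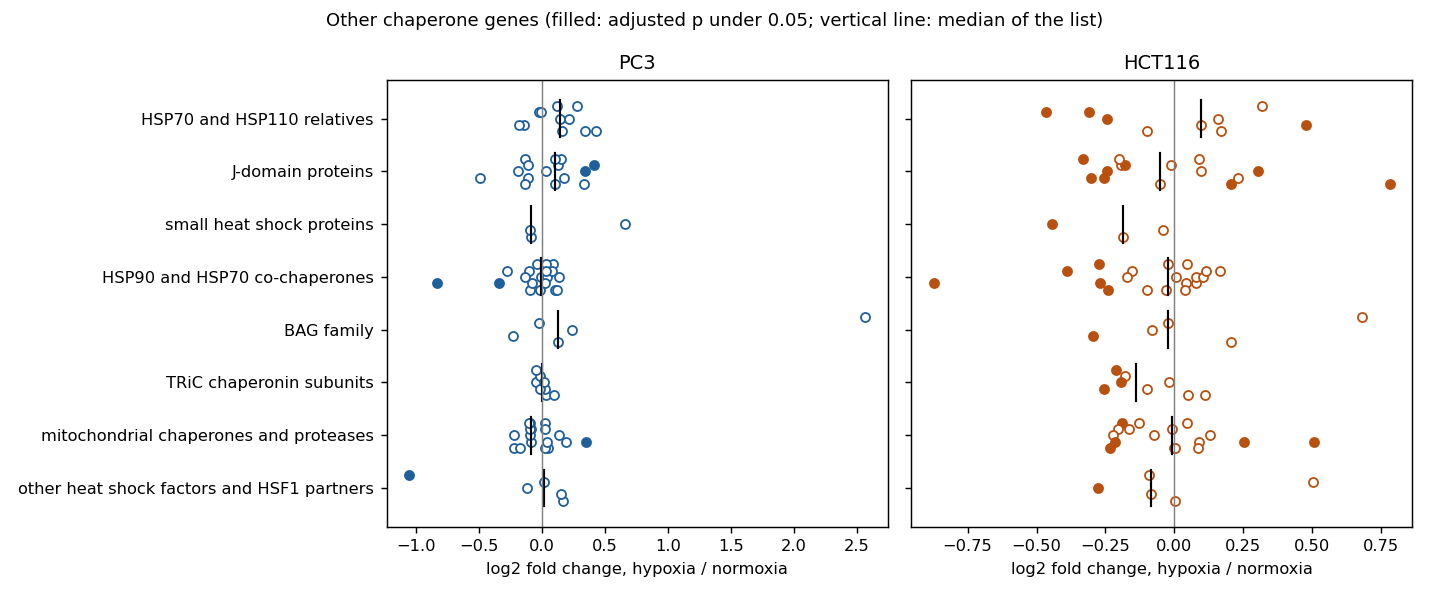
Log2 fold change of hypoxia against normoxia for the other chaperone genes, by list, in PC3 (left) and HCT116 (right), with filled points for an adjusted p under 0.05 and a vertical line for the median of each list. The horizontal axes differ, 6 points are filled in PC3 and 28 in HCT116, and 22 of the 28 lie below 0.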

How the data were processed

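Per the paper's methods and the submitters' processing notes, the authors used HISAT2 (2.05) to align paired-end reads to the ERCC spike-ins and the remaining reads to GRCh37, and counted reads in RefSeq genes with HTSeq (0.5.4p3, intersection-strict). The deposited values are raw counts per gene, without normalisation. The RefSeq release and strand setting are not given in the sources used here, and the spike-in counts were not analysed here. Pairs of replicates had a chi-square per gene between 12.1 and 257, beyond sampling noise, and each library is its own replicate. The counts were tested with edgeR 4.0.16 in R 4.3.3 (filterByExpr, TMM, quasi-likelihood test), in the 2 conditions of a line or the 2 lines of a condition, and over all 14 libraries for the interaction. DESeq2 1.42.0 was an alternative. Scripts were tested on simulated data. Ratios and summed shares were compared by exact two-sided permutation tests. A floor of 3 counts was 0.0201 to 0.0447 CPM, for counting error only.

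In PC3, libraries with the same replicate number deviated together (r of 0.675, 0.267, 0.14 and 0.282 over 14309 genes). The labels do not say what a number stands for. Libraries of different numbers reached 0.198 (normoxia 4 with hypoxia 2) and 0.136 (normoxia 2 with hypoxia 3). A pairing by number was thus clear for replicate 1 and weak for replicate 3, and the blocked fit is given as an alternative.

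The members and lists were chosen with earlier results of these data known. Genes named are the members, per list and line the 2 largest changes past the threshold at a mean of at least 1 CPM, HSPA1A and HSPA1B, the gene most alike each member, the treatment checks and the line markers. One of the line markers is not reported here.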

Additional observations from a re-analysis of the deposited data

Results flagged for a closer look

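In the groups of 4 PC3 libraries, 30 sets of values (member levels, ratios and the summed share) were examined for a library far from the other 3, which chance gives in about 1 in 20 sets, and 3 were found. HSF1 in normoxia was 109 CPM in replicate 1, below 117 to 118 CPM in the others. HSPB1 in hypoxia was 164 CPM in replicate 4, above 104 to 113 CPM. HSPE1 in hypoxia was 144 CPM in replicate 1, below 186 to 188 CPM.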

How the results depend on the processing

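Counts of calls are given as higher and lower. In PC3, all genes gave 562 and 1733 with total-count scaling, 1383 and 1185 with DESeq2, and 1246 lower in a fit over all 14 libraries. Members there gave 1 lower with total-count scaling (HSPA8) and 1 higher with DESeq2 (HSF1), and the other chaperones 8 lower with total-count scaling. In HCT116, all genes gave 1286 and 3146 with total-count scaling and 938 and 795 in the fit over 14 libraries, where 0 members and 10 other chaperones were lower. Members gave 2 lower (HSPH1 and HSPE1) with DESeq2, with no filter on low counts, and with scaling by median of ratios, by total count or by the upper quartile, and the other chaperones 3 higher with total-count scaling. Between the lines in hypoxia 1 member, HSF1, was lower with total-count scaling, DESeq2, a minimum of 10 counts in every library and the fit over 14 libraries. The interaction gave 504 and 467 genes with DESeq2, of which 1 and 3 were other chaperones, and 1 of these was lower without both PC3 libraries of replicate 1. Total-count scaling put the median of all genes at −0.10 in PC3 and −0.09 in HCT116 on the log2 scale.

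With the replicate block, PC3 gave 2125 and 1949 genes, 2 members higher, and 6 and 7 other chaperones. HCT116 gave 2 members lower, HSPH1 and HSPE1 (adjusted p = 0.0299), where 26.6% of all 14120 genes were called, 11.7% lower. Its same-number correlations were 0.0908, 0.138 and 0.0429, so the numbers are not taken to pair those samples, although every library correlated best with its own number. The blocked interaction, with the block in both lines, gave 710 and 596 genes, with 0 members and 2 and 5 other chaperones. No paired analysis was possible between the lines because a number shared by 2 lines marks no common sample.

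Leaving out each library in turn gave, in PC3, 364 to 1143 genes higher and 189 to 942 lower, 1 to 4 other chaperones higher and 0 to 3 lower, and a difference in summed share of −0.206 to −0.137. In HCT116 it gave 0 to 2 members lower, and 2 to 7 and 11 to 18 other chaperones higher and lower. HSPE1 was added without normoxia replicate 1 or 2. In hypoxia between the lines it gave 0 to 1 members lower, and for the interaction 94 to 423 genes higher, 78 to 294 lower and 0 to 2 other chaperones lower.

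Values near 0 changed sign, as did HSPA1A in HCT116 at 0.32 (SE 0.74), and none of them was called. HSPA1A had only 18 to 100 counts there in normoxia and 9 to 90 in hypoxia. In HCT116 HSF1 was −0.0091 with median-of-ratios scaling and with DESeq2, −0.0083 with upper-quartile scaling and −0.015 in the fit over 14 libraries. With total-count scaling it was −0.090, HSP90AB1 −0.052, HSPB1 −0.040, BAG3 −0.063 and HSPD1 −0.061. HSF1 between the lines in normoxia was −0.067 with total-count scaling. The DNAJB1 interaction was −0.012 with median-of-ratios scaling and with DESeq2, and −0.024 without both PC3 libraries of replicate 1. The HCT116 difference in summed share was 0.0103 of the TMM-scaled size. With single libraries left out, PC3 HSPH1 ran from −0.095 to 0.0038 and HSPD1 from −0.11 to 0.079. In HCT116 HSF1 ran from −0.048 to 0.045, HSPA8 from −0.15 to 0.0097, HSP90AB1 from −0.0079 to 0.073, BAG3 from −0.012 to 0.060, HSPD1 from −0.00046 to 0.079 and HSPA1A from −0.16 to 1.60. Between the lines HSF1 in normoxia ran from −0.019 to 0.072 and BAG3 in hypoxia from −0.085 to 0.29. The interaction ran from −0.017 to 0.15 for HSPA8, −0.065 to 0.084 for DNAJB1, −0.21 to 0.047 for HSPB1 and −0.065 to 0.14 for HSPD1. The 8 members higher in HCT116 than in PC3 were called under all 14 alternatives run in each condition. The causes were not tested. The longest transcript as a length was an alternative chosen after seeing the data.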
